A study of Mus musculus with 8 samples.

Results

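The genes that move copper into, through and out of a cell were followed in sorted mouse Paneth cells. These were the membrane transporters Slc31a1 and Slc31a2, the cytosolic chaperones Atox1 and Ccs, and the copper pumps Atp7a and Atp7b. The copper-dependent ferroxidases Heph and Cp completed the list. All were taken by symbol from textbook copper biology and are 8 of the 55414 genes in the count table. The rule uses no measured value, but earlier results of these data were known when the genes were chosen. RNA was sequenced from Paneth cells of C57BL/6J mice, an inbred strain, and the labels name no transgene or deletion. In the water group, 4 mice drank Milli-Q (ultrapure) water, and in the zinc group 4 mice drank the same water with 25 mM ZnSO4, both for 7 days. Cells of the small intestine were brought into suspension and sorted by FACS, and each library came from 1 mouse. Neither the labels nor the methods used here give the age and sex of these mice.

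Copper is needed by a small set of enzymes and is harmful when free, so cells pass it from protein to protein. SLC31A1 (CTR1) lets reduced copper in, chaperones hand it to superoxide dismutase, to the mitochondrion or to the P-type ATPases of the Golgi, and these pumps load secreted enzymes or drive copper out of the cell. In the small intestine copper and zinc are linked through metallothionein, a small protein that is induced by zinc, binds copper more tightly than zinc and can hold it in the epithelium, and high oral zinc is used to limit copper uptake. The comparison of zinc with water therefore asked whether the copper genes of Paneth cells moved while the metallothionein genes did.

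The 8 libraries held 20760764 to 24117111 counts, and 11637 to 12411 genes per library had 10 counts or more. At this depth 3 counts, the most that a count of 0 was taken to allow, stood for 0.115 to 0.188 CPM (counts set relative to the size of the library, with edgeR's TMM factors of 0.764 to 1.23). All 5 listed Paneth cell markers were tested, with summed levels of 316406 to 606310 CPM on water and 299721 to 611504 CPM on zinc. Of the marker lists for other cells, stem cell markers stood at 4356 to 5728 CPM on water and 3047 to 4455 CPM on zinc, and goblet cell markers at 8129 to 13694 and 10207 to 13309 CPM. Tuft cell markers summed to 14.0 to 120 and 17.1 to 81.6 CPM. Markers of stroma and endothelium were at most 0.625 CPM in any library, with Col1a1, Pdgfra and Acta2 at 0 throughout.

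Genes known to respond to zinc were higher in the cells of mice on zinc. Mt2, which encodes a metallothionein, stood at 2.81, 2.15, 7.32 and 3.51 CPM in replicates 1 to 4 on water, and at 232, 455, 205 and 240 CPM in replicates 1 to 4 on zinc. It rose on zinc by a log2 fold change of 6.15, with an SE of 0.51 (edgeR quasi-likelihood adjusted p = 0.0198). Mt1, its neighbour on chromosome 8, rose by 3.65 (SE 0.38, edgeR adjusted p = 0.0259), from 20.9 ± 7.48 to 264 ± 109 CPM (n = 4 each, SD). Slc30a1, which encodes the zinc exporter ZnT1, rose by 2.01 (SE 0.29, edgeR adjusted p = 0.0198), from 2.51 ± 1.10 to 10.3 ± 2.31 CPM. In all 3 genes the groups did not overlap. Leaving out 1 library moved the adjusted p of Mt2 to at most 0.0906 (without water replicate 1), that of Mt1 to at most 0.159 (without water replicate 1) and that of Slc30a1 to at most 0.0862 (without water replicate 2), while the log2 fold changes stayed within 5.82 to 6.63, 3.32 to 3.85 and 1.78 to 2.18. With library totals as the only scaling, Slc30a1 was outside the threshold (log2 fold change 1.99, edgeR adjusted p = 0.0836).

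No copper transport or chaperone gene passed the threshold of an adjusted p of 0.05. Of the 8 genes, 7 had enough counts to be tested, and edgeR called 0 of them, against 0.0834% of all 11988 genes tested (0.025% called higher and 0.0584% called lower on zinc). At an unadjusted p below 0.05 the count was also 0, against 4.65% of all genes. DESeq2 and limma-voom called 0 as well, although DESeq2 placed 1 gene, Atp7b, under an unadjusted p of 0.05. The water and zinc libraries overlapped in all 7 genes, as they did in most genes tested, of which 2.84% had groups that did not overlap. The log2 fold change was below 0 in 6 of the 7, with a median of -0.11, beside a median of 0.01 over all genes tested. For 6 of the 7 the 95% interval of the fold change lay between a halving and a doubling, and Atp7b was the exception. In bulk libraries of sorted cells, fewer cells that express a gene and less of its RNA per cell cannot be told apart. The p-values measure the spread between 4 mice per group.

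**Figure D1:**
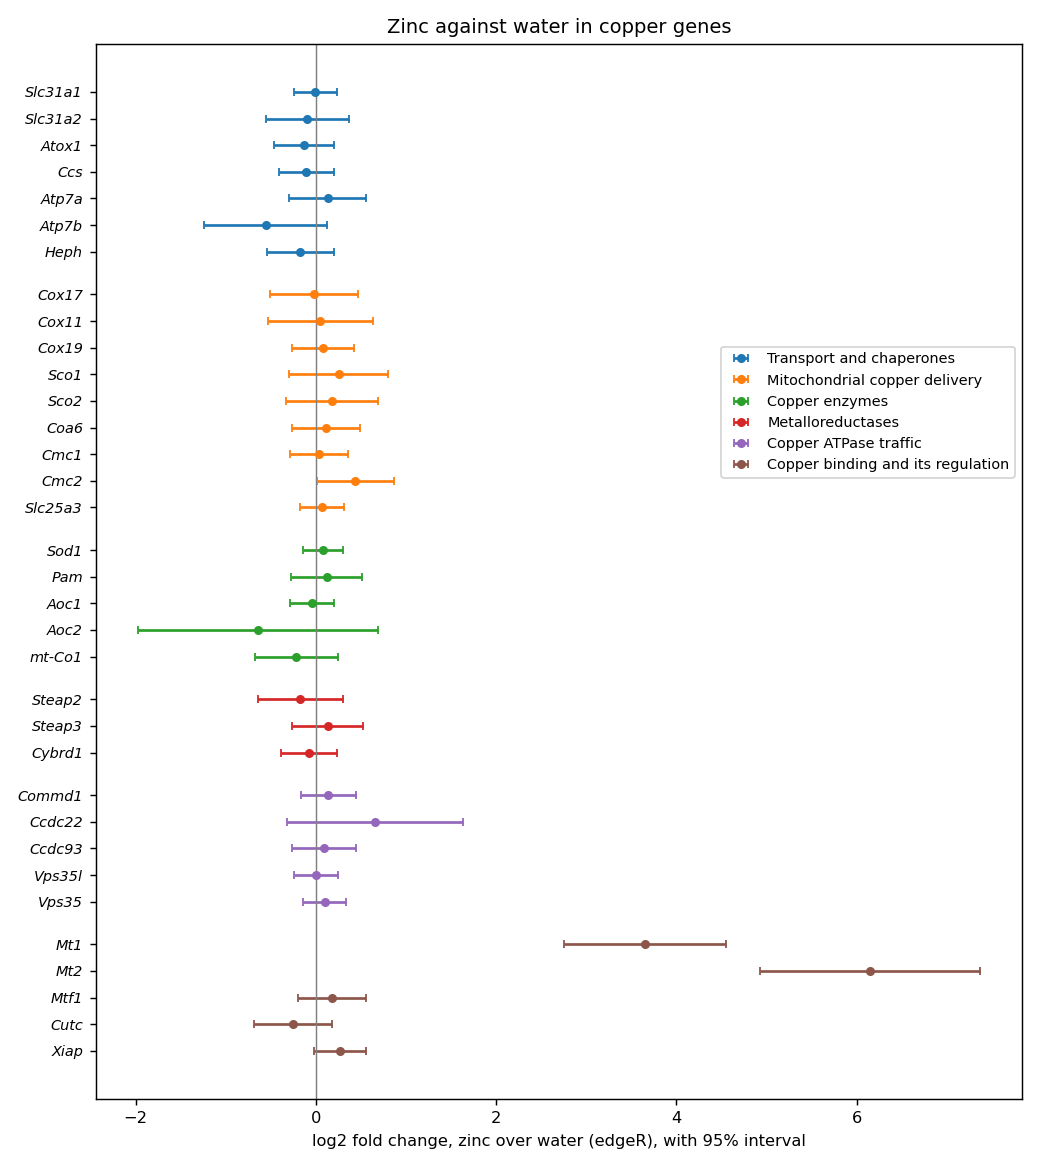
Log2 fold change of zinc over water (horizontal axis, edgeR) for the 7 tested transport and chaperone genes and the 27 tested wider copper genes, coloured by group, where points are estimates and bars are 95% intervals. The intervals of the 7 cross 0, the widest of them being that of Atp7b from -1.24 to 0.12, whereas Mt1 and Mt2 stand far to the right at 3.65 and 6.15.

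The membrane transporters were the first group. Slc31a1 (ENSMUSG00000066150, GRCm39 chromosome 4, 62278085 to 62320861, plus strand) encodes the high-affinity copper importer CTR1, and Slc31a2 (ENSMUSG00000066152, chromosome 4, 62180799 to 62220050, plus strand) encodes its relative CTR2, found largely on internal membranes. They are neighbours, 58034 bases apart. A pair of methionines with 3 residues between them lines the pore of this transporter family. Any such spacing was searched for, and a match is not by itself the pore pair. It was found at codons 11 to 15, 47 to 51 and 156 to 160 of 196 in Slc31a1, and at codons 111 to 115 of 143 in Slc31a2. The coding bases of the copy nearest the end of each protein are given. The capitals are the Met codons, in exon 5 of Slc31a1 (chr4:62306905-62306931) and exon 4 of Slc31a2 (chr4:62215273-62215299), plus strand:
Slc31a1: ttcctcATGctcatcttcATGacctac
Slc31a2: tttgtgATGctggctgtcATGtcctac

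Slc31a1 had the most counts of the 8 genes and the smallest relative spread. It stood at 103, 115, 90.4 and 89.0 CPM in replicates 1 to 4 on water, and at 105, 102, 98.9 and 89.4 CPM in the same order on zinc, from 1640 to 2666 counts per library. The highest library was 1.29 times the lowest, and the zinc libraries lay within the range of the water libraries. Means were 99.1 ± 11.9 and 98.8 ± 6.77 CPM (n = 4 each, SD), and the fold change had a 95% interval of 0.844 to 1.18 (log2 fold change -0.01, SE 0.11, edgeR adjusted p = 0.998). Without water replicate 2 the log2 fold change was 0.07, so that its sign rested on single libraries.

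Slc31a2 was covered by 123 to 213 counts per library. Its levels were 9.01, 6.19, 8.25 and 5.96 CPM on water and 8.31, 5.94, 8.41 and 4.81 CPM on zinc, so the groups overlapped almost fully. The log2 fold change was -0.10, with an SE of 0.22 (edgeR adjusted p = 0.998), and a fold change from 0.682 to 1.28 was inside the 95% interval. With TMM factors, replicate 4 was the lowest library of its group for both transporters, on water and on zinc. This order depended on the scaling. With library totals only, Slc31a1 was lowest in replicate 1 (78.3 CPM on water, 81.5 CPM on zinc) and stood at 108 and 109 CPM in replicate 4. Slc31a2 was then lowest in water replicate 2 (6.29 CPM) and zinc replicate 4 (5.89 CPM). The log2 ratio of Slc31a1 to Slc31a2 was 3.76 ± 0.355 on water and 3.88 ± 0.322 on zinc (n = 4 each, SD), a difference of 0.11 (two-sided exact permutation p = 0.6, adjusted over 5 ratios 0.629). Both gene bodies overlap Fkbp15, and Slc31a1 also Cdc26, on the opposite strand (Fkbp15: 3578 counts over the 8 libraries, log2 fold change 0.04). The strand setting of the counting is not stated in the labels or methods used here.

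**Figure D2:**
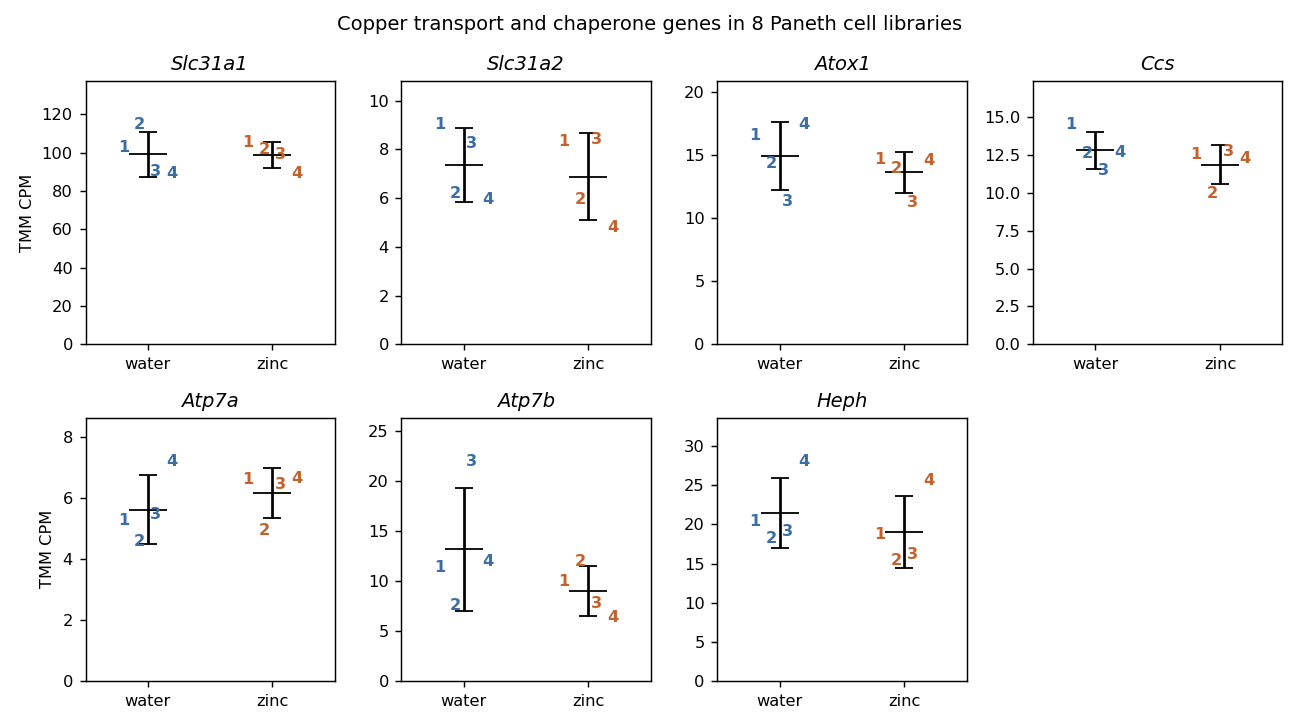
Level of the 7 tested copper genes in each of the 8 libraries (vertical axis, CPM with TMM factors), on water and zinc side by side, the digit at each point giving the replicate number of 1 mouse, and lines giving the group mean ± SD (n = 4). The groups overlap in every panel, and water replicate 3 stands highest for Atp7b, at 22.0 CPM.

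The chaperones pick copper up in the cytosol. Atox1 (ENSMUSG00000018585, chromosome 11, 55336780 to 55352132, minus strand) carries copper to the ATPases, and Ccs (ENSMUSG00000034108, chromosome 19, 4874370 to 4889374, minus strand) inserts it into superoxide dismutase 1, the product of Sod1. Atox1, the first domain of Ccs and the amino-terminal domains of both ATPases share a copper-binding motif of Met, any residue, Cys, any 2 residues and Cys, through which copper passes from one protein to the next. The motif was found once in the coding sequences of Atox1 and Ccs, 6 times in that of Atp7a, 5 times in that of Atp7b, and 0 times in those of the transporters and ferroxidases. The first copy in each gene is printed in coding orientation to show the shared site, with the Met and Cys codons in capitals, from exon 2 of Atox1 (chr11:55345738-55345767, minus strand), of Ccs (chr19:4888890-4888919, minus strand), of Atp7a (chrX:105113436-105113465, plus strand) and of Atp7b (chr8:22518585-22518614, minus strand):
Atox1: gtggacATGaccTGTgagggcTGTgctgaa
Ccs: gtgcagATGagtTGTcagagcTGTgtggat
Atp7a: gagggaATGacaTGTatttccTGTgtccgg
Atp7b: ctgggcATGactTGTcattctTGCgtcaag

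Atox1 stood at 16.5, 14.3, 11.3 and 17.4 CPM on water and at 14.7, 14.0, 11.3 and 14.5 CPM on zinc. On this scale replicate 3 was the lowest library in both groups, and 3 of the 4 zinc libraries fell within the water range, with zinc replicate 3 just below it. With library totals only, the lowest were water replicate 3 (12.1 CPM) and zinc replicate 1 (11.4 CPM). The means of 14.9 ± 2.69 and 13.6 ± 1.60 CPM (n = 4 each, SD) gave a log2 fold change of -0.13, with an SE of 0.16 (edgeR adjusted p = 0.998), with a fold change of 0.726 to 1.15 in the 95% interval. Without 1 library the log2 fold change ran from -0.25 (water replicate 3) to -0.05 (water replicate 4).

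Ccs was one of the steadier genes, with a coefficient of variation of 10.4% over the 8 libraries, beside 9.09% for Slc31a1. It was found at 14.5, 12.6, 11.5 and 12.7 CPM on water and at 12.5, 9.95, 12.7 and 12.3 CPM on zinc. Zinc replicate 2 was the lowest of all 8 libraries on this scale, and the others overlapped. With library totals only, zinc replicate 1 was the lowest (9.70 CPM, beside 9.92 CPM in zinc replicate 2). The log2 fold change was -0.11, with an SE of 0.15 (edgeR adjusted p = 0.998), with a fold change of 0.750 to 1.15 in the 95% interval, and without 1 library the log2 value ran from -0.16 (water replicate 3) to -0.03 (zinc replicate 2). Its client Sod1 stood at 99.5 ± 6.78 CPM on water and 105 ± 5.87 CPM on zinc (log2 fold change 0.08, SE 0.10). The log2 ratio of Ccs to Sod1 was -2.75, -2.93, -3.05 and -3.11 in replicates 1 to 4 on water and -3.15, -3.34, -2.96 and -3.13 on zinc. The ratio was lower on zinc by a mean log2 difference of -0.19, which did not exceed the spread between mice (two-sided exact permutation p = 0.143, adjusted over 5 ratios 0.571, smallest possible p 0.0286). That smallest p left little room for any of the 5 ratios to pass once adjusted.

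The pumps ATP7A and ATP7B take copper from ATOX1, move it across the Golgi membrane and, when copper is high, export it. ATP7A is the form known for basolateral export from the enterocyte, and ATP7B the form known from the liver and bile. Atp7a (ENSMUSG00000033792, chromosome X, 105070845 to 105171766, plus strand) and Atp7b (ENSMUSG00000006567, chromosome 8, 22482801 to 22550352, minus strand) both carry the copper-binding motif printed above.

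Atp7a was the only tested member with a higher mean in the zinc group. Its levels were 5.25, 4.55, 5.46 and 7.18 CPM on water and 6.59, 4.92, 6.44 and 6.63 CPM on zinc. Replicate 4 was the highest library and replicate 2 the lowest in both groups, and the groups overlapped. With library totals only, replicate 4 was still the highest, but the lowest water library was replicate 1 (4.01 CPM, beside 4.63 CPM in replicate 2). The log2 fold change was 0.13, with an SE of 0.20 (edgeR adjusted p = 0.998), from 5.61 ± 1.11 to 6.15 ± 0.819 CPM (n = 4 each, SD), and a fold change from 0.813 to 1.47 was inside the 95% interval. Without 1 library the log2 fold change ran from 0.03 (water replicate 2) to 0.27 (water replicate 4).

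Atp7b was the most variable member, with a coefficient of variation of 44.2% and a highest library 3.47 times the lowest. It stood at 11.3, 7.52, 22.0 and 11.9 CPM on water and at 9.92, 12.0, 7.74 and 6.32 CPM on zinc, and was thus highest in water replicate 3 (519 counts, beside 163 to 312 in the other 7 libraries). Its means were 13.2 ± 6.17 and 8.99 ± 2.48 CPM (n = 4 each, SD). The log2 fold change of -0.56 (SE 0.31) had an unadjusted edgeR p of 0.0975 and an adjusted p of 0.998, and the fold change had a 95% interval of 0.424 to 1.09. Without water replicate 3 the log2 fold change was -0.20 (edgeR adjusted p = 1.00), and without water replicate 2 it was -0.76 (edgeR adjusted p = 0.747). Over the 8 fits without 1 library the adjusted p ran from 0.747 to 1.00. Water replicate 3 was also the library with the highest summed level of 6 enteroendocrine cell markers, 88.7 CPM, beside 5.94 to 42.9 CPM in the other 7, and the part of these cells in the Atp7b level was not tested.

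The balance of the pumps was compared within each library. The log2 ratio of Atp7a to Atp7b was -1.10, -0.72, -2.004 and -0.73 on water and -0.59, -1.28, -0.27 and 0.07 on zinc. The ratio was below 0 in 7 of the 8 libraries, and zinc replicate 4 was the exception. The mean ratio was higher on zinc by 0.62 on the log2 scale, which was not past the spread between mice (two-sided exact permutation p = 0.229, adjusted over 5 ratios 0.571). The log2 ratio of Atox1 to Atp7b was 0.27 ± 0.831 on water and 0.63 ± 0.410 on zinc (n = 4 each, SD; two-sided exact permutation p = 0.6, adjusted over 5 ratios 0.629). Without water replicate 3 this difference changed sign, from 0.37 to -0.04.

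**Figure D3:**
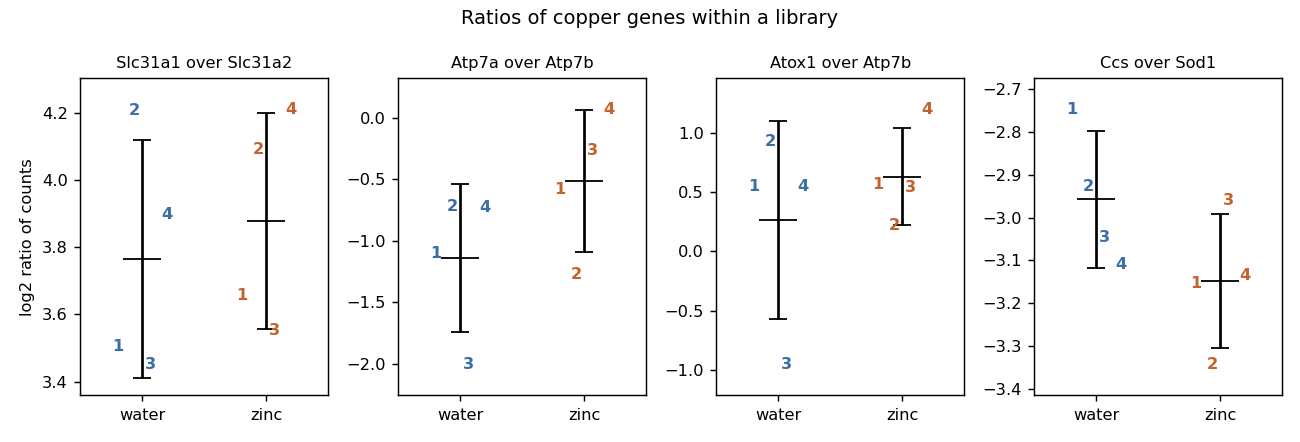
Log2 ratio of the counts of 2 genes within each library (vertical axis) for 4 of the 5 ratios compared, without that of Cp to Heph, with the digit at each point giving the replicate number of 1 mouse and lines giving the group mean ± SD (n = 4). The Atp7a to Atp7b ratio runs from -2.004 to -0.72 on water and from -1.28 to 0.07 on zinc, and the groups overlap in every ratio.

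The ferroxidases are the copper enzymes that oxidise iron for export. Heph (ENSMUSG00000031209, chromosome X, 95498965 to 95621010, plus strand) encodes hephaestin, bound to the basolateral membrane of intestinal cells, and Cp (ENSMUSG00000003617, chromosome 3, 20011090 to 20063930, plus strand) encodes ceruloplasmin, the ferroxidase that the liver secretes into plasma. Heph stood at 20.3, 18.3, 19.1 and 28.0 CPM on water and at 18.8, 15.4, 16.2 and 25.6 CPM on zinc. Replicate 4 was the highest and replicate 2 the lowest in both groups, and the zinc library was the lower one at each replicate number. With library totals only, replicate 4 was still the highest, but replicate 1 was the lowest (15.5 CPM on water, 14.5 CPM on zinc). The log2 fold change was -0.17, with an SE of 0.18 (edgeR adjusted p = 0.998), from 21.4 ± 4.49 to 19.0 ± 4.64 CPM (n = 4 each, SD), and the fold change had a 95% interval of 0.686 to 1.15. Leaving out the high library of 1 group moved the log2 fold change. It was -0.36 without zinc replicate 4 (edgeR adjusted p = 1.00) and -0.02 without water replicate 4. Each of these fits kept the high library of the other group, and no fit left out both. In replicate 4 the summed Paneth cell markers were the lowest of each group (316406 CPM on water, 299721 CPM on zinc). The 8 listed enterocyte markers were the highest there (121 and 130 CPM). These enterocyte markers ran from 77.4 to 121 CPM on water and from 99.6 to 130 CPM on zinc. Zinc replicate 2, the lowest for Heph at 15.4 CPM, had 127 CPM of them. The part of these cells in the Heph level was not tested.

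Cp was all but undetected. A single count in water replicate 4 was the only one in the 8 libraries, so Cp was not tested and no fold change is given. With 0 counts in the 4 zinc libraries, a level of up to 0.116 to 0.178 CPM per zinc library could not have been seen at this depth. The other 7 genes had 84 counts or more in every library. Cp overlaps Hps3 (992 counts over the 8 libraries) on the opposite strand.

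The levels of different genes were compared per length, as CPM per kilobase of merged exons, over the 8 libraries. Slc31a1 came first at 12.5 ± 1.14, followed by Ccs at 4.22 ± 0.438, Slc31a2 at 3.12 ± 0.682, Atox1 at 2.78 ± 0.421, Atp7b at 1.70 ± 0.749, Heph at 1.61 ± 0.353 and Atp7a at 0.488 ± 0.0789 (SD, n = 8). Cp was last. On this scale the importer at the entry to the pathway stood above every chaperone, pump and oxidase. Of the 7 pairs of neighbours in this order, 5 differed beyond the spread between libraries (two-sided exact sign-flip permutation test, adjusted p = 0.0137 for 4 of them and 0.0328 for Atox1 over Atp7b). The order was set by the means of the same libraries, so these p-values are no separate support for it. They also leave out the choice of length. Among the 4 was Atp7a over Cp, whose outcome was fixed by the near absence of Cp. Slc31a2 and Atox1 could not be placed in order (mean log2 difference 0.15, higher in 4 of 8 libraries, exact permutation adjusted p = 0.474), nor could Atp7b and Heph (higher in 4 of 8, exact permutation adjusted p = 0.992).

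The length that is used moved the place of Atox1. Its annotated exons merge to 5126 bases, whereas its canonical transcript has 608, and with canonical lengths, a setting chosen after the data had been seen, Atox1 came to 23.4 ± 3.55 CPM per kilobase, second to Slc31a1 at 26.4 ± 2.40 (SD, n = 8). These did not differ beyond the spread (mean log2 difference 0.18, 6 of 8 libraries, exact permutation adjusted p = 0.128). On that scale Ccs had 11.4 ± 1.18, Slc31a2 3.84 ± 0.839, Heph 3.38 ± 0.738, Atp7b 1.70 ± 0.749 and Atp7a 0.722 ± 0.117. Atox1 was then above Ccs in 8 of 8 libraries (exact permutation adjusted p = 0.0137). Heph was above Atp7b in 7 of 8 (exact permutation adjusted p = 0.0219), a pair that merged exons had not placed. With the length of the longest transcript Heph also came before Atp7b. Under both lengths Slc31a1 was first, Atp7a was the lowest detected gene, and Atp7b was above Atp7a.

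**Figure D4:**
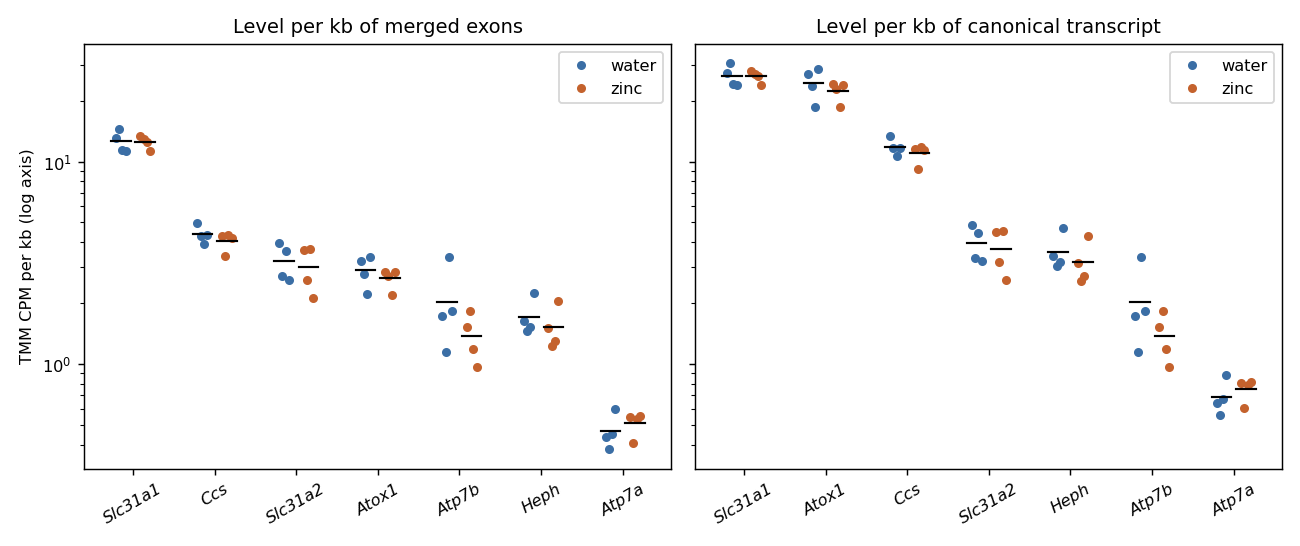
Level per length of the 7 tested copper genes (vertical axis, CPM per kilobase, log scale) by merged exon length (left) and by canonical transcript length (right), with 1 point for each library on water or zinc and lines at the group means. Slc31a1 is highest in both panels, Atp7a is lowest, and Atox1 moves from 2.78 to 23.4 with the shorter length.

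The genes were also compared in how they varied from mouse to mouse. Over the 8 libraries and 21 pairs of genes, the highest Pearson correlations of log2 CPM were those of Atox1 with Heph (0.61) and of Atp7a with Heph (0.59), and the lowest were those of Slc31a1 with Atp7a (-0.64) and with Heph (-0.62). These are descriptions over 8 libraries that share depth and scaling, and all used TMM factors. The negative values depended on that scaling. With library totals only, Slc31a1 and Heph were both lowest in replicate 1 (78.3 and 15.5 CPM on water, 81.5 and 14.5 CPM on zinc). In replicate 4 they stood at 108 and 34.0 CPM on water and at 109 and 31.4 CPM on zinc. Correlations on library totals were not computed. Among 11092 genes with a mean of at least 1 CPM, the genes most like Slc31a1 over the 8 libraries were Slc25a22 (0.966), Arhgdig (0.957) and Prmt3 (0.955). Those most like Ccs were Bloc1s1 (0.934), Pafah1b2 (0.929) and Sap30bp (0.921). Those most like Slc31a2 were Mul1 (0.954), Scgb2b20 (0.947) and Plekhb1 (0.947).

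The promoters of the metal-responsive genes and of the copper genes were searched for the core of the metal response element, the site bound by the zinc-sensing factor MTF1, because Mt1, Mt2 and Slc30a1 rose while no copper gene passed the threshold. The letters searched were TGCACNC and TGCGCNC, on both strands, from 250 bases before to 50 bases after the start of the canonical transcript on GRCm39. Mt1 had 3 matches, Mt2 had 2 and Slc30a1 had 2. Of the 8 copper genes, 4 had at least 1 match (50%), beside 27.4% of 21770 promoters of coding genes. Atp7a had 2 matches, which overlap in part of their flanks, Slc31a2, Atp7b and Ccs had 1 each, and Slc31a1, Atox1, Heph and Cp had 0 in this window. The matches of Mt2, Atp7a and Ccs are shown with the 7 matched bases in capitals, on the strand of the gene, at chr8:94899012-94899040 and chr8:94899107-94899135 (Mt2, 109 and 14 bases before its start, plus strand), chrX:105070687-105070715 and chrX:105070699-105070727 (Atp7a, 184 and 172 bases before, plus strand) and chr19:4889373-4889401 (Ccs, 16 bases before, minus strand):
Mt2, first: agcatcgcctcTGCACCCggcccctcggg
Mt2, second: cgcagacccttTGCGCTCagctcctttgc
Atp7a, first: tgagaatgcatGCGTGCAccagggggcgc
Atp7a, second: cgtgcaccaggGGGCGCAaggagctcccg
Ccs: ctcagcctaggGAGCGCAcgcgccaagga

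In Mt2 the letters read on the strand of the gene, and in Atp7a and Ccs on the opposite one. A match is a run of letters and not a site of binding. Atp7a and Ccs, with 2 matches and 1 match, had log2 fold changes of 0.13 and -0.11, beside 6.15 for Mt2.

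The wider copper genes were counted in 5 groups of 39 listed genes. Of these, 27 were tested, and 2 rose and 0 fell on zinc in edgeR, beside 0.0834% called over all genes tested, both of the 2 being the metallothionein genes already described. Without 1 library the count was 0 (water replicate 1, 2 or 4), 1 (water replicate 3, zinc replicate 1 or zinc replicate 4) or 2 (zinc replicate 2 or 3). Without Mt1 and Mt2, 0 of 25 tested genes were called and 1 had an unadjusted p below 0.05, beside 4.65% of all genes, with a median log2 fold change of 0.08 beside 0.01 over all genes tested. DESeq2 and limma-voom also called 2 of the wider genes.

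The first group delivers copper to cytochrome c oxidase in the mitochondrion. All 9 of its genes were tested and 0 were called, and 8 of the 9 had a log2 fold change above 0, with a median of 0.07, beside 6227 of 11988 over all genes. Cmc2, which encodes an assembly factor of the oxidase, had the smallest p: 5.63, 6.83, 4.15 and 5.31 CPM on water and 7.07, 6.90, 6.28 and 9.39 CPM on zinc (log2 fold change 0.44, SE 0.21, edgeR adjusted p = 0.998, an unadjusted p of 0.0471). Slc25a3, the phosphate carrier that also brings copper into the matrix, had the highest level per length of the group, and stood at 229 ± 26.4 CPM on water and 241 ± 10.1 CPM on zinc (n = 4 each, SD, log2 fold change 0.07, SE 0.12).

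Most enzymes that use copper were under the low-count filter. Of 16 listed genes 5 were tested and 0 called, with a median log2 fold change of -0.04. The lysyl oxidase genes Lox, Loxl1 and Loxl4, the tyrosinase gene Tyr, Dbh and the ferroxidase gene Hephl1 had 0 counts in all 8 libraries. The tested gene with the smallest p was Aoc2, an amine oxidase gene, at 0.570 ± 0.108 and 0.357 ± 0.290 CPM (n = 4 each, SD, log2 fold change -0.64, SE 0.63, edgeR adjusted p = 0.998). The highest level per length was that of mt-Co1, which encodes the copper-bearing first subunit of cytochrome c oxidase, 4870 ± 1019 and 4191 ± 1041 CPM (log2 fold change -0.22, SE 0.22). The gene of the second subunit, mt-Co2, was listed at 0 in every library although mt-Co1 had 62224 counts or more, so this 0 was not read as a level.

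Metalloreductases reduce copper and iron for uptake. Of 4 listed genes 3 were tested and 0 called. Steap2, the tested gene with the smallest p, stood at 8.28 ± 2.43 and 7.34 ± 1.63 CPM (n = 4 each, SD, log2 fold change -0.18, SE 0.22, edgeR adjusted p = 0.998). Cybrd1, the duodenal ferric reductase gene and highest per length, stood at 67.9 ± 10.5 and 64.4 ± 12.5 CPM (log2 fold change -0.08, SE 0.15). Steap4, named after its values had been seen, was under the low-count filter, with 9, 4, 17 and 31 counts in the water libraries and 0, 2, 3 and 0 counts in the zinc libraries. The groups did not overlap, which 2.84% of tested genes also showed, and the sums were 61 counts on water (exact Poisson 95% interval 46.7 to 78.4) and 5 on zinc (1.62 to 11.7), intervals that cover counting error only. Without the filter the log2 fold change was -3.44, with an SE of 1.00 (edgeR adjusted p = 0.124), and DESeq2 gave -3.58 (adjusted p = 0.173). The summed level of 6 immune cell markers was 0.804 to 2.63 CPM on water and 0.0388 to 0.178 CPM on zinc, with Cd3e and S100a8 at 0. On water this sum rested mainly on C1qa and Ptprc, which peaked in different libraries. C1qa had 42, 23, 13 and 0 counts in water replicates 1 to 4, and Ptprc had 0, 1, 4 and 32. The part of immune cells in the Steap4 counts was not tested.

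Proteins that sort the copper ATPases between Golgi and plasma membrane, COMMD1 with its partners CCDC22 and CCDC93, VPS35L and the retromer subunit VPS35, made up 5 genes, all tested, with 0 called and a median log2 fold change of 0.10. Ccdc22 had the smallest p, at 0.754 ± 0.107 and 1.19 ± 0.620 CPM (n = 4 each, SD, log2 fold change 0.66, SE 0.46, edgeR adjusted p = 0.998), and Vps35 the highest level per length, at 91.6 ± 9.76 and 97.9 ± 7.43 CPM (log2 fold change 0.10, SE 0.11). In the last group, copper binding and its regulation, Mt1 and Mt2 were called among 5 tested genes. Mtf1, which encodes the zinc-sensing factor, had a log2 fold change of 0.18 (SE 0.18), Cutc -0.25 (SE 0.20) and Xiap, whose product binds CCS and copper, 0.26 (SE 0.14, edgeR adjusted p = 0.998).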

How the data were processed

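Raw read counts per Ensembl gene, not normalized, were deposited by the authors as 1 table for 8 libraries made with a stranded mRNA kit. The submitters' processing notes name STAR 2.7.0a, FastQC 0.12.0, DESeq2 and the build mm39. The counting program, its strand setting and the annotation are not given in the labels or methods used here. IDs were matched to GENCODE M39 on GRCm39 (54749 of 55414). Groups and replicate numbers came from the labels. The zinc and water groups were compared in edgeR 4.0.16 (R 4.3.3): default low-count filter (minimum count 10), TMM factors, robust quasi-likelihood F test, treatment only, Benjamini-Hochberg adjustment over 11988 genes, threshold 0.05. SE was obtained from the log2 fold change and F. Ratios used log2 of counts + 0.5 and levels per length log2 of the level + 0.01, with exact two-sided permutation tests (SciPy 1.17.1; 70 assignments for ratios, 256 sign flips for the order, smallest p 0.0286 and 0.00781). Alternatives were RLE factors, library totals, DESeq2 1.42.0, limma-voom 3.58.1, no filter, a mean count of at least 50, Defa genes left out, a replicate block, and each library left out. Scripts were tested on simulated counts.

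The copper genes and all lists were chosen with earlier results of these data known. The text names all 8 members, Mt1, Mt2, Slc30a1, Sod1 and, of each wider group, every gene past the threshold or else the gene of smallest p and the gene of highest level. For the 3 tested members of highest level per length it names the 3 genes of highest Pearson correlation. Steap4, Mtf1, Cutc, Xiap and the genes at 0 were named with their values in view. By a chi-square test of counts, libraries within a group differed beyond sampling noise, and each counted as 1 replicate. Limits from counts cover counting error only, since the libraries are not stated to carry molecular identifiers. Of 75-base windows of the canonical transcripts, 1 of 8069 in Atp7a and 0 in the other members occurred in another gene.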

Additional observations from a re-analysis of the deposited data

Results flagged for a closer look

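The levels of the 7 tested copper genes and of Mt1, Mt2 and Slc30a1, 4 of the ratios and the total counts were tested for a library far from the others of its group of 4, by Dixon's test with the 95% critical value. The test set 1 library apart in 4 of 30 groups, and chance gives about 1 in 20. All 4 were zinc replicate 2. In that library Atp7a was low, at 4.92 CPM, beside 6.44 to 6.63 CPM in the other zinc libraries. Ccs was also low there, at 9.95 CPM beside 12.3 to 12.7 CPM. Both were read with TMM factors. With library totals only, Atp7a stood at 5.10, 4.91, 6.76 and 8.12 CPM in zinc replicates 1 to 4, and Ccs at 9.70, 9.92, 13.4 and 15.1 CPM. On that scale zinc replicate 2 lay close to zinc replicate 1 in both genes, and Dixon's test was not run. Mt1 and Mt2 were high, at 425 CPM beside 189 to 223 CPM and at 455 CPM beside 205 to 240 CPM. Neither Atp7a nor Ccs was past the threshold between the groups with or without this library.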

How the results depend on the processing

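The count of copper members called was 0 under all 16 alternatives. The count of ratios past the threshold was 0 under all 9 alternatives run for them, but 8 of these left out 1 library. In those 8 the lowest exact permutation p was 0.0571, the smallest that the fewer assignments allow, so no ratio could have passed. With all libraries, the smallest possible p of 0.0286 left little room once adjusted over 5 ratios. The order of the members by level per length had 5 of 7 neighbour pairs apart in each alternative that kept all libraries, and 4 to 5 without 1 library. The equal count hides changes of order. Canonical lengths put Atox1 above Ccs and Heph above Atp7b, and the longest transcript length also put Heph above Atp7b. The labels do not say that same-numbered libraries share a source, and the block was kept as an alternative because 1 pair stayed low: deviations from the group means correlated at 0.30, 0.03, 0.14 and 0.34 for replicates 1 to 4 over 11988 genes, and water replicate 2 correlated best with zinc replicate 3 (0.07). Pairs of unlike numbers reached at most 0.088. TMM factors were near each other at each number. They were 0.764, 1.02, 1.07 and 1.21 in replicates 1 to 4 on water, and 0.775, 0.998, 1.05 and 1.23 on zinc. The share of counts from Defa genes fell from replicate 1 to replicate 4 in both groups (39.9% to 29.2% on water, 38.5% to 27.9% on zinc). These are hints from the data and not from the design. With the replicate number as a block, the count over all genes moved from 3 higher and 7 lower to 6 higher and 26 lower, the wider copper genes from 2 to 0 called (Mt1 adjusted p = 0.379, Mt2 0.241) and the 3 metal-responsive genes to 1 called, Slc30a1, while the log2 fold changes of Mt1 and Mt2 were 3.62 and 6.14; the cause was not tested. Library totals as the only scaling gave 2 of the 3. Leaving out 1 library gave 0 to 2 wider copper genes (0 without water replicate 1, 2 or 4, and 1 without water replicate 3, zinc replicate 1 or zinc replicate 4) and 0 to 3 of the metal-responsive genes (0 without water replicate 2, and 1 without water replicate 1 or 4), with fewer samples in each such fit. Signs changed only in such fits: the log2 fold change of Slc31a1 ran from -0.0575 to 0.0650 (above 0 without water replicate 1 or 2 or zinc replicate 4) and that of Slc31a2 from -0.22 to 0.0399 (above 0 without water replicate 1 or zinc replicate 4), and the difference in the Atox1 to Atp7b ratio from -0.0405 to 0.59. The Cp to Heph ratio, which rests on 1 Cp count, ran from -0.33 to 0.0213. Without the low-count filter Atp7b had an edgeR p of 0.00204 (adjusted 0.289), and with DESeq2 0.0424. No filter gave 11 higher and 55 lower over 20836 genes, and DESeq2 8 and 28. The depth of 123 to 213 counts for Slc31a2 and 84 to 188 for Atp7a limits what could be seen in these genes.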
